A study of Mus musculus with 2 samples.

Results

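The genes described here are Dcpp1, Dcpp2 and Dcpp3, 3 paralogs on mouse chromosome 17 that encode small secreted saliva proteins. They were the 3 of the 26033 genes in the deposited tables that carried these symbols, and they were chosen by their UMIs over all kept barcodes, which were higher in a Csf2 null than in a Csf2 heterozygous salivary gland library. That contrast is given below as a description, with no test. Their UMIs (unique molecular identifiers, each standing for 1 captured RNA molecule) were summed per library, per cluster of barcodes and per barcode, for each gene and for the 3 together (the Dcpp sum).

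Dcpp stands for demilune cell and parotid protein, after the salivary cells in which the proteins were described. The proteins are secreted lectin-like relatives of Zg16, a zymogen granule protein. Salivary acinar cells make such products on the rough endoplasmic reticulum, store them in secretory granules and release them into the duct, so their transcripts can be among the most abundant of a gland. Csf2 encodes GM-CSF, a cytokine that acts on myeloid cells.

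The 2 libraries were made from nuclei of whole salivary glands of mice aged 20 days, with no cell type selected, using the 10x Chromium 3' kit, version 2. The control library came from the genotype labelled C56BL/6 Csf2+/-, so the control also carried a null allele, and the null library from C56BL/6 Csf2-/-. Which glands were pooled, how many mice each library held and how the null allele was made are not stated in the sources used here. With 1 library per genotype there is no replicate spread and no test of genotype, and a difference between the libraries cannot be told apart from a difference between 2 animals, dissections or preparations.

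Csf2 itself had 5 control UMIs (95% Poisson interval 1.62 to 11.7) and 0 null UMIs (0 to 3.69), so the targeted gene was too rare to check the labels. The files held 68460 control and 74339 null barcodes with 76002888 and 75630815 UMIs, and 1367 barcode sequences occurred in both (2.0% of the control barcodes). After filtering, 67940 control and 55517 null barcodes were kept. Joint clustering, with the Dcpp genes left out of the variable genes, gave 24 clusters. Of these, 5 were secretory-rich: their barcodes had few UMIs (medians 792 and 795), and 8 other abundant secretory genes made up a large share of them. They held 59300 control barcodes (87.3%) and 41272 null barcodes (74.3%). The other 19 are called nuclei clusters here; they held 8640 and 14245 barcodes, whose median depth was 2808 and 1953 UMIs. Intervals given below are 95% intervals and cover counting error only.

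The 3 genes are near copies of each other, which is why the sequences upstream of them are shown. These are the 250 bases before each RefSeq start on the plus strand of GRCm38.p6, at chr17:23880626-23880875, chr17:23898472-23898721 and chr17:23917208-23917457. Capitals mark bases that differ from, or lie opposite a gap in, at least 1 other paralog. Bases at either end that reach beyond another paralog's window are not marked.
Dcpp1: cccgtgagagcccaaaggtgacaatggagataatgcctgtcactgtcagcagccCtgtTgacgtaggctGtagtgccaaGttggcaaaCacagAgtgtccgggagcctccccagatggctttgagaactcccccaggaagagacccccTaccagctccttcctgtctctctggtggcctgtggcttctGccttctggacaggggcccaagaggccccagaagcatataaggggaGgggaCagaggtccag
Dcpp2: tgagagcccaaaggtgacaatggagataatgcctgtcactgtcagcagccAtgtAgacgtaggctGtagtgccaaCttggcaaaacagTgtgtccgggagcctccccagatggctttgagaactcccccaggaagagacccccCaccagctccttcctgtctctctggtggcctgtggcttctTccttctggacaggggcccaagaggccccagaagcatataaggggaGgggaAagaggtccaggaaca
Dcpp3: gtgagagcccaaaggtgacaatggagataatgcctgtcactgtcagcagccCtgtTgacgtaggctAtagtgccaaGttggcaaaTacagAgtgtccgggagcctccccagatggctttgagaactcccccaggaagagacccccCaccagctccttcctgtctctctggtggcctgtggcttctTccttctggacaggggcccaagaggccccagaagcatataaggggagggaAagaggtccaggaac

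Aligned in pairs, the upstream sequences were 97.1% identical between Dcpp1 and Dcpp2 and 98.0% identical for both pairs with Dcpp3. All 3 held the TATA box letters TATAA, whose first base lay at -26, -31 and -29 from the start of Dcpp1, Dcpp2 and Dcpp3. That motif was found on either strand in 24.9% of 32851 RefSeq windows of 300 bases (250 before and 50 after the start). The E-box letters CANNTG (72.3% of windows) and the ETS core GGAAG (71.4%) were also in all 3. The STAT letters TTCNNNGAA (8.30% of windows) and ACGTG, a core bound by XBP1 (19.6%), were in none of the 3 windows. These matches describe letters and not sites of binding.

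The transcripts were less alike than these upstream windows. The longest coding transcripts in GENCODE M21 had 617, 689 and 678 bases, with identities of 92.1% between Dcpp1 and Dcpp2, 92.0% between Dcpp1 and Dcpp3 and 96.9% between Dcpp2 and Dcpp3. Of all 90-base windows, 24.6% of those in Dcpp1, 25.8% in Dcpp2 and 30.9% in Dcpp3 occurred unchanged in another paralog. How reads from such windows were divided is not stated, so each single gene's count is uncertain and the Dcpp sum is the safer measure.

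Over all kept barcodes the Dcpp sum was 460083 UMIs in control and 1621952 in null barcodes. Scaled to the library's UMIs, as counts per 1000000 (CPM), this was 6079 (6062 to 6097) against 25060 (25022 to 25099), a log2 ratio of null over control of 2.04. The Dcpp sum thus went from 0.608% to 2.51% of all UMIs in the library. Dcpp1 had 1314 CPM in control and 5274 in null barcodes. Dcpp2 had 2101 and 8209 CPM. Dcpp3 had 2665 and 11577 CPM. The log2 ratios were 2.01, 1.97 and 2.12, so the 3 genes were higher by nearly the same factor. In the null library they ranked 11, 10 and 8 among all genes by UMIs, and in the control 31, 19 and 16. All 3 members were at least 2-fold higher in the null library, as were 0.779% of 13230 genes with at least 200 UMIs, and since this contrast chose the members nothing is read from that count.

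The difference stood in both kinds of barcode. In the secretory-rich clusters the Dcpp sum was 7871 CPM in control and 35533 in null barcodes, or 2.17 as a log2 ratio. All 5 of these clusters lay between 7849 and 8016 CPM in the control library and between 32002 and 35680 in the null library, although 1 of them was mostly control (27765 control and 951 null barcodes) and another mostly null (3261 and 34745). In the nuclei outside the cluster described next, the Dcpp sum was 2486 CPM (2467 to 2505) and 13266 (13225 to 13308), which gave 2.42 (2.40 to 2.43) as the log2 ratio. All 3 members passed a 2-fold difference in each of these groups, beside 0.366% of 11751 genes in the secretory-rich clusters and 0.422% of 11854 genes in the nuclei. These again share the contrast that chose the members.

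The Dcpp sum was higher in the null library in every nuclei cluster compared. Classes were named from marker genes, and 14 nuclei clusters besides the one described next had at least 50 barcodes in each library. Their Dcpp sum ran from 1883 to 3688 CPM in the control library (median 2489) and from 10259 to 14836 in the null library (median 13097). The ranges did not overlap, but they share the contrast that chose the members, so nothing is read from that. How many other genes had ranges without overlap was not counted. Seromucous acinar-like nuclei, named from Bhlha15, Lpo, Cldn10 and Etv1, had 2476 CPM in control and 14004 in null barcodes. Mucous acinar-like nuclei had 2502 and 12070 CPM. Some classes not known for making saliva proteins were no lower than these acinar classes. Macrophage-like nuclei had 2781 (2667 to 2898) and 14836 (14559 to 15117) CPM, endothelial-like nuclei 3197 and 14301, and Schwann-like nuclei 2758 and 14508. Fibroblast-like nuclei (cluster 5) were lower than seromucous acinar-like nuclei in both libraries, with 2350 (2299 to 2402) and 12162 (12048 to 12276) CPM. The log2 ratio over these clusters had a median of 2.40, a lowest value of 1.64 in unnamed cluster 18 and a highest of 2.62 in ionocyte-like nuclei.

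In order of the control level, unnamed cluster 18, endothelial-like (3197 CPM), intercalated duct-like (2816), macrophage-like (2781) and Schwann-like (2758) nuclei came first. They were followed by myoepithelial-like (2522), mucous acinar-like (2502), seromucous acinar-like (2476) and fibroblast-like nuclei (2350, cluster 5), by unnamed cluster 7 (2335), and by luminal duct-like nuclei (2332 in cluster 6 and 2111 in cluster 15). Ionocyte-like nuclei (2095) and unnamed cluster 19 (1883) came last. The counting intervals of intercalated duct-like (2713 to 2921), macrophage-like and Schwann-like nuclei (2562 to 2965) overlapped, as did those of myoepithelial-like (2425 to 2621), mucous acinar-like (2415 to 2592) and seromucous acinar-like nuclei (2446 to 2505), and these neighbours did not differ beyond counting error. The intervals did not overlap between cluster 18 (3544 to 3837) and endothelial-like nuclei (3015 to 3387), between endothelial-like and intercalated duct-like nuclei, between seromucous acinar-like and fibroblast-like nuclei (2299 to 2402), or between the luminal duct-like clusters 6 (2274 to 2391) and 15 (1986 to 2243).

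**Figure D1:**
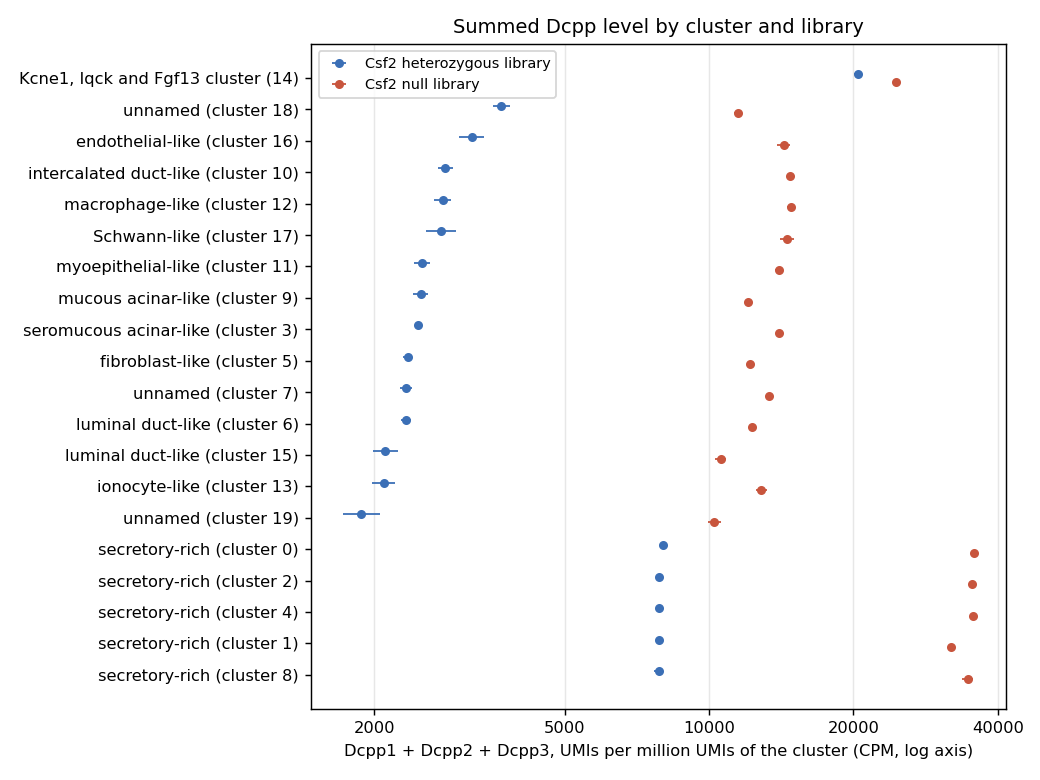
Dcpp sum in CPM (log axis) for each cluster with at least 50 barcodes in both libraries, control in blue and null in red, with 95% Poisson intervals as horizontal bars. The cluster led by Kcne1, Iqck and Fgf13, at the top, has 20449 CPM in the control library, while the other nuclei clusters lie between 1883 and 3688, and its 2 points are closer together than those of any other cluster drawn.

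A single small cluster stood apart. Cluster 14 held 122 control and 269 null nuclei and was led, by fold over the other nuclei, by Kcne1, Iqck and Fgf13, followed by Nrg1, Glis3, Myrfl, Epha7, B3galt5, St8sia6 and Mup6. It was singled out because it had the highest Dcpp level of the nuclei clusters in the control library. A choice on the control level favours a large control excess and a small ratio of null over control. The level, the excess and the ratio given below are therefore descriptions. Kcne1 encodes a potassium channel subunit, Fgf13 an intracellular member of the FGF family, Nrg1 a ligand of ERBB receptors and Glis3 a transcription factor. Kcne1 had 316 CPM there against 5.04 in the other control nuclei, and 291 against 10.1 in the null library. Glis3 had 2976 against 152 CPM and 2631 against 138 CPM. The 10 leading genes were picked for their fold over the other nuclei in the pooled libraries, so their excess is a description. Some differed between the libraries by more than the Dcpp sum did in this cluster, with no intervals computed. Myrfl had 129 CPM in control (55 UMIs) and 84.8 in null barcodes (53 UMIs), and Epha7 2160 and 1513. Iqck had 173 and 246 CPM, and B3galt5 194 (83 UMIs) and 138 (86 UMIs).

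The cluster was given no cell type name. Of 10 seromucous acinar markers, Bpifa2 and Etv1 exceeded the other nuclei at least 2-fold, and of 8 intercalated duct markers Kit and Nrg1 did, which falls short of the 3 markers required. In the control library the seromucous markers summed to 65450 CPM in the cluster and 81772 in the other nuclei. In the null library they summed to 83403 and 97936. The intercalated duct markers summed to 7284 against 10088.5 CPM in control and 8382 against 11058 in null barcodes, with Gfra3 at 0. None of 9 mucous acinar markers was 2-fold above the other nuclei, Gcnt3, Ern2 and Galnt6 were at 0, and their sum was 1549 against 3333 CPM in control and 2196 against 4611 in null barcodes. For myoepithelial markers 0 of 10 passed, with Krt14, Oxtr and Krt17 at 0 and sums of 44.5 against 255 CPM and 52.8 against 235 CPM. For macrophage markers 0 of 16 passed, with Fcgr1 and Itgam at 0 and sums of 88.9 against 369 CPM and 106 against 300 CPM. The same 391 nuclei formed a cluster of 391 at Leiden resolution 0.5, and fell in a cluster of 395 at resolution 2.0 and when the Dcpp genes were among the variable genes.

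In this cluster the Dcpp sum was 20449 CPM (20022 to 20882; 8739 UMIs) in control and 24541 (24154 to 24932; 15342 UMIs) in null barcodes. In the control library that was 8.22 times the level of the other nuclei (log2 3.04, 3.01 to 3.07) and 2.60 times that of the secretory-rich clusters. In the null library it was 1.85 times the level of the other nuclei (log2 0.89, 0.86 to 0.91) and 0.691 times that of the secretory-rich clusters. The library difference inside the cluster was a log2 ratio of 0.26 (0.23 to 0.30), or 1.20-fold, where the other 14 clusters had 1.64 or more. None of the 3 members was 2-fold higher in the null library within the cluster, beside 1.3% of 3838 genes with at least 50 UMIs there, and their log2 ratios were 0.43 for Dcpp1, 0.17 for Dcpp2 and 0.27 for Dcpp3 against a median of -0.06 over those genes. They ranked 507, 1074 and 795 of the 3838.

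Each paralog showed the cluster in the same way. Dcpp1 had 3501 CPM in the cluster against 539 in the other control nuclei, and 4712 against 2814 in the null library. Dcpp2 had 7134 against 854 CPM and 8006 against 4310 CPM. Dcpp3 had 9814 against 1093 CPM and 11823 against 6143 CPM. In the control library all 3 exceeded the other nuclei at least 2-fold (6.50-, 8.35- and 8.98-fold), as did 3.39% of 10079 genes. In the null library none of the 3 did (1.67-, 1.86- and 1.92-fold), beside 2.72% of 10346 genes. Within the cluster Dcpp3 was the 6th and the 4th most abundant transcript of the control and null libraries.

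The cluster held a small part of all Dcpp UMIs. Of the Dcpp UMIs in the control library, 84% lay in secretory-rich barcodes, 14.1% in the other nuclei and 1.90% in the cluster. In the null library the shares were 74.4%, 24.6% and 0.946%. The cluster made up 1.41% (1.17 to 1.68%) of control nuclei and 1.89% (1.67 to 2.13%) of null nuclei, a log2 ratio of 0.42 (0.11 to 0.74). As a share of all kept barcodes the log2 ratio was 1.43 (1.12 to 1.75), so the number depends on whether secretory-rich barcodes are counted. Whether the number of these cells moves with the Dcpp level of a gland was not tested, as there were 2 libraries.

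Barcode by barcode, the nuclei of the cluster were higher than the other nuclei in both libraries, and fewer null than control nuclei passed the 99th percentile of the others. Per 1000 UMIs of the barcode, the 122 control nuclei of the cluster had a lowest value of 3.40 Dcpp UMIs, a median of 17 and a highest of 363. The other 8518 control nuclei had a median of 2.38 and a 99th percentile of 8.31, which 114 of the 122 (93.4%, exact binomial interval 87.5 to 97.1%) exceeded. In the null library the 269 nuclei of the cluster had a lowest value of 9.83, a median of 23.5 and a highest of 273, beside a median of 13.7 and a 99th percentile of 30.8 in 13976 other nuclei, which 41 of the 269 (15.2%, 11.2 to 20.1%) exceeded. Outside the cluster, 6 of 8518 control nuclei reached the cluster's own median, 3 of them mucous acinar-like, while 770 of 13976 null nuclei did.

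The highest barcode of the cluster lay far above the rest of the cluster in both libraries. In the control library it had 836 Dcpp UMIs of 2301, or 36.3%, and held 9.57% of the cluster's Dcpp UMIs, and the next barcode had 119 per 1000. In the null library the highest had 569 of 2083 UMIs, or 27.3%, and the next had 97.6 per 1000. Without these barcodes the cluster had 18592 CPM in control and 23710 in null barcodes, and the log2 ratio was 0.35 in place of 0.26. Such barcodes were not particular to the cluster in the null library. There the highest value per 1000 UMIs was 342 in the other nuclei and 351 in secretory-rich barcodes. In the control library these values were 120 and 112.

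**Figure D2:**
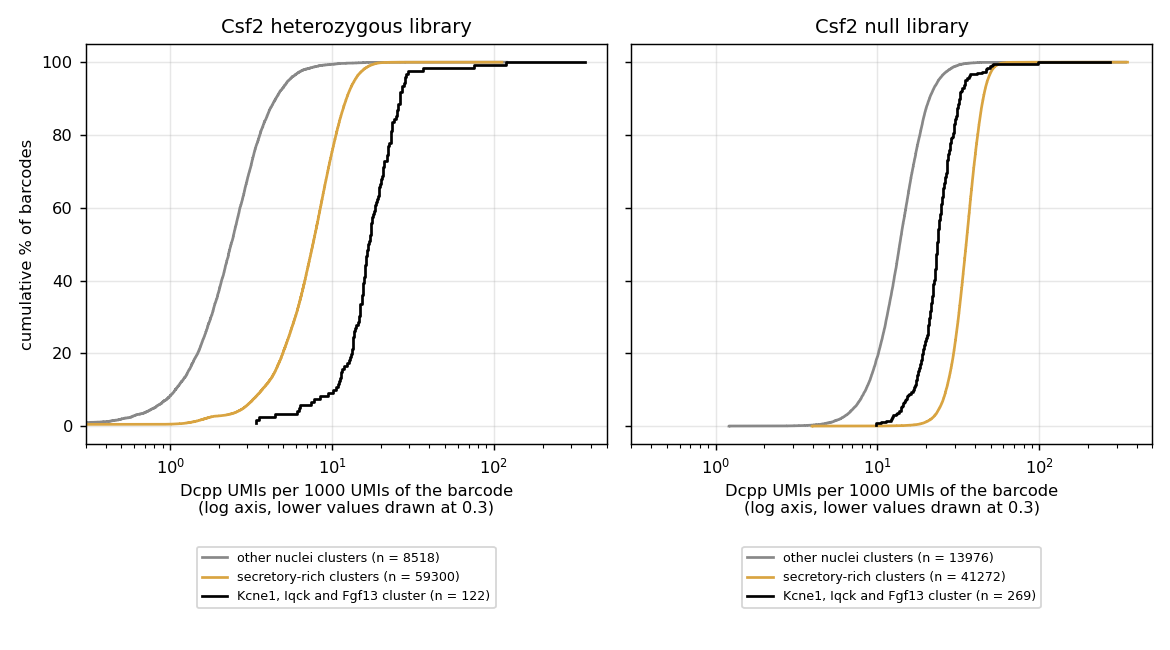
Cumulative percentage of barcodes against Dcpp UMIs per 1000 UMIs of the barcode (log axis), for the cluster led by Kcne1, Iqck and Fgf13 (black), the other nuclei clusters (grey) and the secretory-rich clusters (yellow), with the control library on the left and the null library on the right. From control to null the medians moved from 2.38 to 13.7 in the other nuclei and from 17 to 23.5 in the cluster, whose curve lies right of the secretory-rich curve in control and left of it in null barcodes.

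With every barcode thinned to 500 UMIs, 82.8% (74.9 to 89.0%) of control nuclei in the cluster had at least 5 Dcpp UMIs, and 97.8% (95.2 to 99.2%) of null nuclei did. Unthinned, all 122 and all 269 did, at median depths of 3279 and 2199 UMIs. Macrophage-like nuclei, a class not known for making saliva proteins, gave 6.01% (3.66 to 9.23%) in control and 83.4% (79.3 to 87.0%) in null barcodes after thinning. Before thinning they gave 74.1% and 100%, at median depths of 2149 and 1632 UMIs. The macrophage-like share is given for comparison, and whether it comes from RNA outside the nuclei was not tested. In the null library most macrophage-like nuclei reached 5 UMIs.

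The level outside the cluster was also set against that of other secretory transcripts. The 8 secretory genes used as a yardstick, namely the mucin-like Mucl2, the secretoglobins Scgb1b27, Scgb2b27 and Scgb2b26, the proline-rich Prol1, the prolactin-induced Pip, the carbonic anhydrase Car6 and the protease inhibitor-like Wfdc12, made up 27.3% of control and 31.0% of null UMIs. Per 1000 UMIs of these genes, the 5 secretory-rich clusters had 21.9 to 23.3 Dcpp UMIs in the control library and 82.0 to 83.6 in the null library. The 14 nuclei clusters had 14 to 25.9 (median 19.5) and 51.1 to 86.2 (median 80.0). Macrophage-like nuclei had 19.7 and 80.8, endothelial-like nuclei 19.3 and 80.0, and seromucous acinar-like nuclei 15.9 and 70.1. The named classes did not share 1 ratio. Mucous acinar-like nuclei had 25.9 and 86.2 (interval in the null library 85.1 to 87.2). In both libraries this was beyond the counting error of seromucous acinar-like nuclei (15.7 to 16.1 and 69.8 to 70.4). How far single high barcodes set the mucous acinar-like ratio was not tested.

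The cluster led by Kcne1, Iqck and Fgf13 lay outside the range of the other nuclei clusters in both libraries. It had 194 (190 to 198) Dcpp UMIs per 1000 secretory UMIs in control and 165 (162 to 168) in null barcodes, which was 7.5 and 1.91 times the highest other nuclei cluster, the mucous acinar-like one. On this scale the cluster was lower in the null library, with a log2 ratio of -0.24 (-0.28 to -0.20), while all other nuclei together had 2.04 (2.02 to 2.05). The 8 genes themselves were no higher in the cluster than elsewhere: they made up 10.5% of its control and 14.9% of its null UMIs, against 13.8% and 18.0% in the other nuclei.

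**Figure D3:**
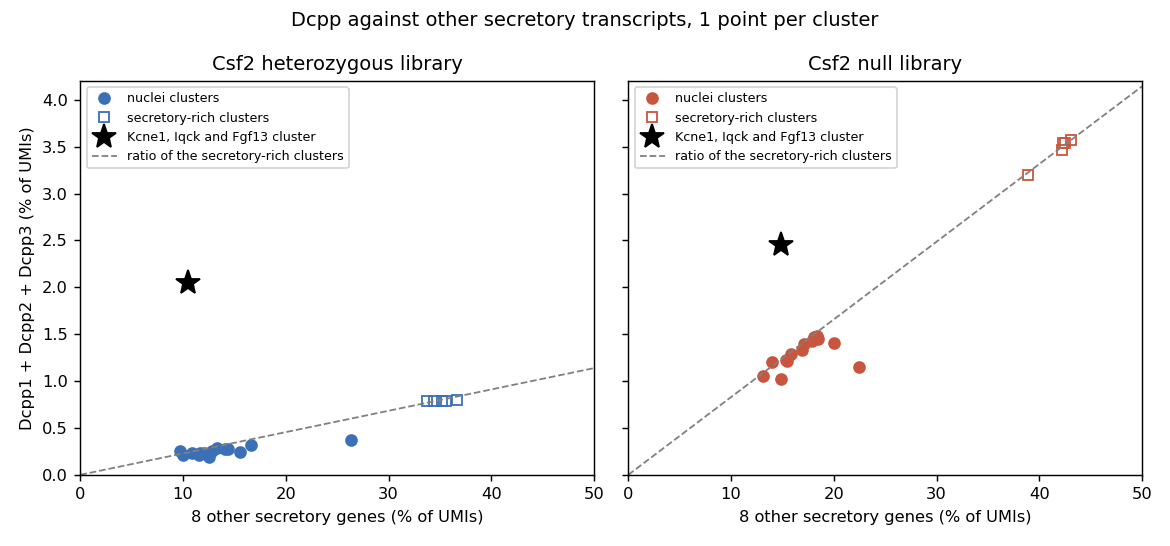
Dcpp sum as a percentage of UMIs against the summed 8 other secretory genes as a percentage of UMIs, 1 point per cluster, with the control library on the left and the null library on the right; the dashed line has the ratio of the secretory-rich clusters (22.8 Dcpp UMIs per 1000 secretory UMIs in the control, 82.9 in the null library). Most clusters lie near the line of their library, and the cluster led by Kcne1, Iqck and Fgf13 (star) lies above it in both.

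A subtraction puts numbers on the part shared with the secretory-rich barcodes. Their RNA is called free RNA here, and whether it lay outside nuclei was not tested. The profile of the secretory-rich barcodes of each library was scaled to the 8 secretory genes of a cluster and removed, which gives a lower value since any of these transcripts made by the nuclei are removed too. For the cluster led by Kcne1, Iqck and Fgf13, 11.7% of control and 50.3% of null Dcpp UMIs were removed. What was left was 7716 and 7631 UMIs, or 63.2 and 28.4 per nucleus and 18054 and 12206 CPM, a log2 ratio of -0.56. The direction in the cluster thus turned with the subtraction. In seromucous acinar-like nuclei the scaled profile held more Dcpp than was observed, 143% of it in control and 118% in null barcodes. It also did so in macrophage-like (116% and 102.5%) and fibroblast-like nuclei (112% and 105%, cluster 5), so nothing was left in these classes. In mucous acinar-like nuclei it held 87.8% and 96.2%, which left 304 CPM in control and 460 in null barcodes, with no counting interval. Thinned to 500 UMIs, 2 of 337 control mucous acinar-like nuclei had at least 10 Dcpp UMIs, beside 0 of 3819 seromucous acinar-like ones. At least 1 Dcpp UMI was found in 66.5% and 72.5% of these. Whether a few barcodes hold what was left was not tested.

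Across single nuclei the 2 quantities went together outside the cluster. Over 8518 other control nuclei, Spearman's rho between the Dcpp and the 8-gene shares of UMIs was 0.40, and over 13976 other null nuclei 0.67. Over the nuclei of the cluster rho was -0.09 in the control (122 nuclei) and 0.42 in the null library (269 nuclei). These are descriptions, since both shares of a barcode have the same denominator and its barcodes the same library.

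With the cluster led by Kcne1, Iqck and Fgf13 left out, the Dcpp level was lower in the deepest barcodes of both libraries. Among barcodes of 500 to 750 UMIs it was 7837 CPM in control and 36016 in null barcodes, and among those of at least 5000 UMIs 1983 and 7975. The log2 ratio was 2.20 in the first and 2.01 in the last of these bins, and 1.77 between 1000 and 1500 UMIs (7730 and 26421 CPM). In the control library the level was flat up to 1500 UMIs (7891 CPM between 750 and 1000) and lower in each deeper bin, while in the null library it was lower in each successive bin. Per 1000 secretory UMIs the control library went from 21.8 to 23.7 between 1000 and 1500 UMIs and to 15.4 in the deepest bin. The null library stayed between 82.5 and 83.0 up to 1500 UMIs and had 50.5 in the deepest bin.

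The 3 paralogs kept a nearly fixed proportion. With a 3' kit a UMI stands for a molecule whatever its length, so these are shares of molecules as assigned to each gene. Dcpp3 made up 43.8% of the Dcpp sum in control and 46.2% in null barcodes. Over the other 19 clusters of at least 50 barcodes in each library, Dcpp1 held 19.2 to 23.7% in control and 20.1 to 21.5% in null barcodes. The cluster led by Kcne1, Iqck and Fgf13 had less Dcpp1 than any of these, 17.1% (16.3 to 17.9%) in control and 19.2% (18.6 to 19.8%) in null barcodes. These intervals overlapped those of some smaller clusters. Among them were Schwann-like nuclei (16.6 to 22.4% and 18.8 to 21.5%) and unnamed cluster 19 (16.9 to 24.1% and 19.4 to 22.1%). Below 50 barcodes, unnamed clusters 22 and 23 had 10.4% and 12.7% Dcpp1 in control, on 48 and 63 Dcpp UMIs. The Dcpp2 share of the cluster led by Kcne1, Iqck and Fgf13 was 34.9% and 32.6% and its Dcpp3 share 48.0% and 48.2%. After the subtraction Dcpp1 was 16.5% and 17.4% there. The highest barcode of the cluster in each library went the other way, with 28.7% and 27.8% Dcpp1.

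**Figure D4:**
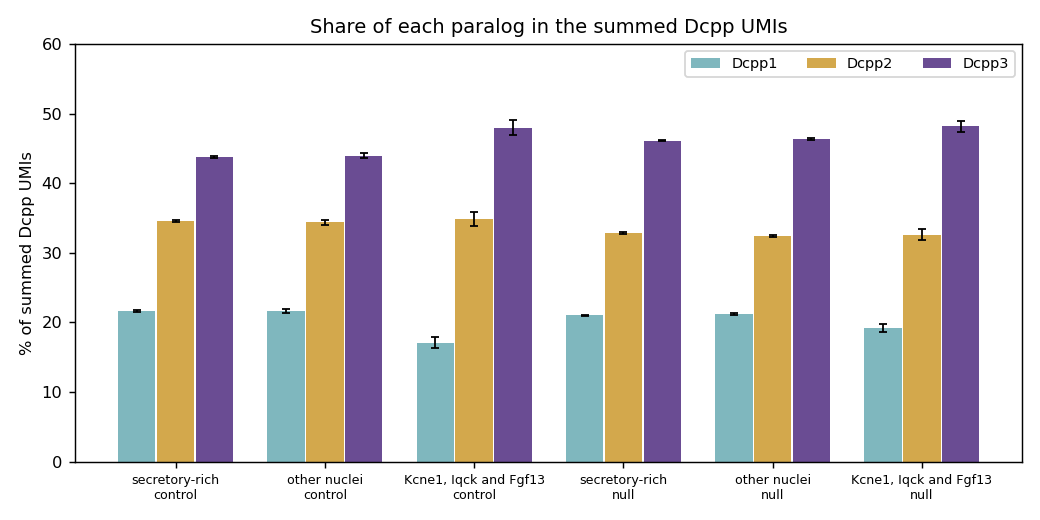
Share of Dcpp1, Dcpp2 and Dcpp3 in the summed Dcpp UMIs (bars, in percent, from 0) with exact binomial 95% intervals, for secretory-rich clusters, other nuclei and the cluster led by Kcne1, Iqck and Fgf13 in each library. Dcpp1 is 21.7% in the other control nuclei and 17.1% in the cluster, and 21.2% and 19.2% in the null library.

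Genes around and related to the family were rare. Zg16, the relative named above, had 9 UMIs in control and 6 in null nuclei outside the cluster and 0 within it. The 4 nearest coding genes on either side in the RefSeq order were the serine protease genes Prss33, Prss41, Prss32 and Prss21 and, on the other side, Sbp, Sbpl, Prss30 and Prss22. Of these, Prss30 had 13 control UMIs, 11 of them in the cluster, and 17 null UMIs, 6 of them in the cluster. Prss32 had 1 of 5 and 6 of 15 there. The cluster held 0.565% of all control and 0.966% of all null UMIs. The shares of Prss30 and Prss32 in it were above these, on counts too small for a level. For Prss32 in control the share rests on 1 UMI. The other 6 had 0 UMIs in the cluster.

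Other saliva protein genes were compared in the same way. Of a list of 30 serous and seromucous products, 15 had at least 200 UMIs over the cluster and the other nuclei of a library, the same minimum as for all genes. In the control library 5 of the 15 were at least 2-fold higher in the cluster and 1 lower, and in the null library 2 were higher and 0 lower. The medians were -0.33 and -0.24 on the log2 scale, beside -0.17 and -0.11 over all genes. The 5 are named for this count, after their values were seen. Bpifa2, the parotid secretory protein, had 636 CPM in the cluster against 66.7 in the other control nuclei, and 550 against 128 in the null library. Pigr, the receptor that carries IgA into saliva, had 88.9 against 16.4 and 76.8 against 30.9 CPM. Wfdc18, the antibacterial Pglyrp1 and Azgp1 passed in the control library alone, with log2 ratios of 1.44, 1.94 and 1.10 there and 0.40, 0.25 and 0.06 in the null library.

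Amy1, salivary amylase, was the lower one, with 1 UMI in the cluster and 566 in the other control nuclei. Dmbt1, a scavenger receptor-type saliva agglutinin, was under the minimum, with 15 UMIs in the cluster and 27 in the other control nuclei, and 13 and 43 in the null library.

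The most abundant saliva genes were at or below the level of the other nuclei. Mucl2 had 46801 CPM in the cluster against 59009 in the other control nuclei and 62164 against 72163 in the null library. Scgb1b27 had 20212 against 26193 and 35380 against 41840 CPM. Prol1, Pip, Car6, Scgb2b26, Scgb2b27 and Wfdc12 were also lower in the cluster in both libraries, with log2 ratios between -0.64 and -0.27. Of 15 mucous products, 7 could be compared, with medians of -0.31 and -0.66. In each library 0 were 2-fold higher, beside 3.39% (control) and 2.72% (null) of all genes, and 2 were 2-fold lower. These were Muc19, the gel-forming salivary mucin (763 against 2554 and 1572 against 3878 CPM), and Galnt12, a mucin O-glycosylation enzyme (16.4 against 36.5 and 14.4 against 47.7 CPM). Smgc, a mucin-like gene of the growing gland, had 5398 against 9216 and 6499 against 10239 CPM.

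All 20 genes of the secretory pathway and granules could be compared, with medians of 0.32 and 0.32. In each library 3 were 2-fold higher in the cluster, beside 3.39% (control) and 2.72% (null) of all genes. In each, 1 gene, Etv5, was 2-fold lower. The 3, named after their values were seen, were the chaperone Hspa5 (505 against 186 and 462 against 196 CPM) and the protein disulfide isomerases Pdia4 (67.9 against 22 and 83.2 against 27.2) and Pdia3 (384 against 151 and 317 against 154), all of the endoplasmic reticulum. Xbp1, which drives the secretory programme, had 468 against 256 and 402 against 242 CPM. Bhlha15, a transcription factor of acinar cells, was lower, with 168 against 336 and 197 against 307 CPM. Between the libraries as a whole, 0 of the 20 were 2-fold higher in the null library, beside 0.779% of all genes. Etv5 (13.9 CPM in control and 6.92 in null barcodes) was 2-fold lower.

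**Figure D5:**
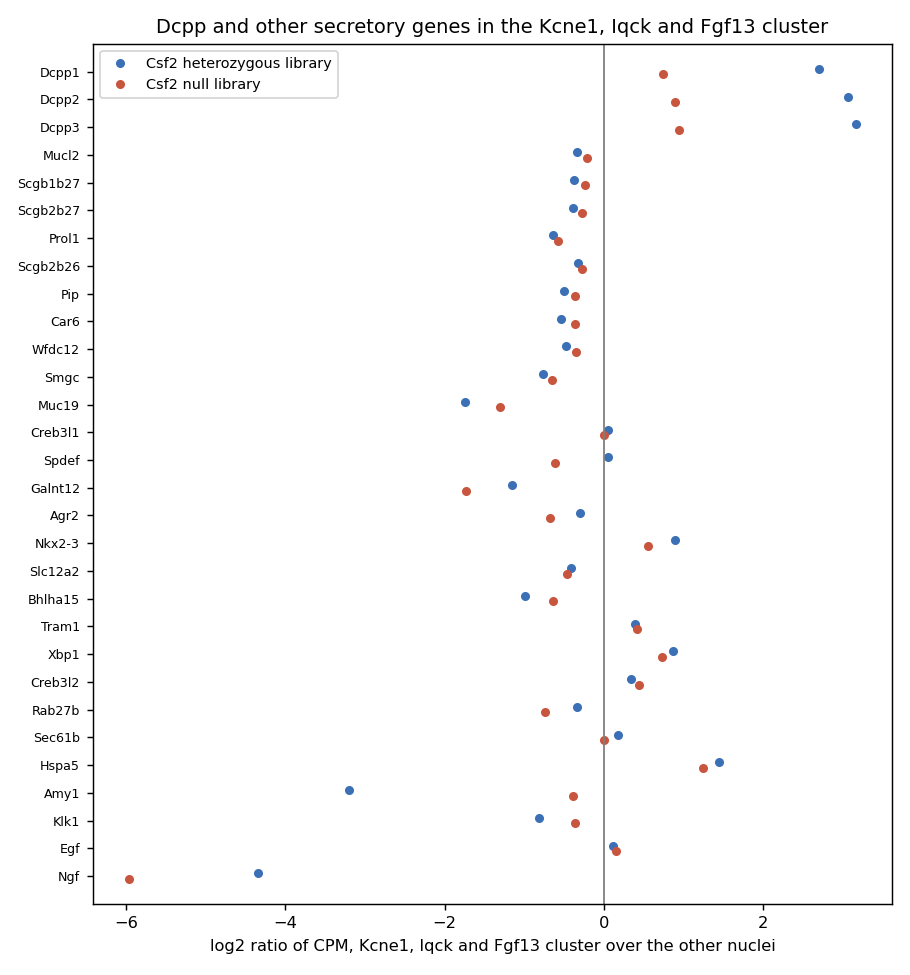
Log2 ratio of CPM in the cluster led by Kcne1, Iqck and Fgf13 over the other nuclei, control in blue and null in red, for the 3 Dcpp genes and for up to 8 of the most abundant members of each fixed list. The Dcpp genes lie at 2.70 to 3.17 in control and 0.74 to 0.94 in null barcodes, and Mucl2, the secretoglobins, Pip and Car6 lie below 0 in both.

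Between the libraries as a whole the same serous list did not move like Dcpp. Of 24 members that could be compared, 2 were at least 2-fold higher in the null library, Pglyrp1 (log2 1.60) and Pigr (1.05), beside 0.779% of 13230 genes. There was 1 lower member, Smr3a, and the median was 0.17. The median of all genes was -0.10. Mucl2 had 124808 and 130284 CPM (log2 0.06), Scgb1b27 51776 and 72938 (0.49) and Bpifa2 149 and 236 (0.67). None of 9 mucous products reached 2-fold in either direction, with a median of 0.15.

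Markers of the separate glands also differed between the libraries, and glands differ in these proteins. Of 4 sublingual markers 3 could be compared, all above 0 and none 2-fold, with a median log2 ratio of 0.61 (Muc19 0.61, Nkx2-3 0.69 and Galnt12 0.37). The 6 submandibular markers had a median of -0.35 with 0 above 0, and 2 of the 4 parotid markers, Car6 (0.17) and Amy1 (-0.88), could be compared, with a median of -0.36. Smr3a had 123 UMIs in the other control nuclei and 1 in the other null nuclei. Mucous acinar-like nuclei were 3.90% of control and 6.48% of null nuclei, a log2 ratio of 0.73 (0.55 to 0.92). The part that gland mixture had in the Dcpp difference was not tested.

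The genes whose level over the 20 clusters was most like the Dcpp sum were Wfdc18, Bpifa2, Cd24a, Calr, Fxyd3, Dynlrb1, Id2, Srp9, Eif5a and Sec61b, by the lower of the 2 libraries' Pearson r of log2(CPM + 1). The r was 0.80 for Wfdc18, 0.79 for Bpifa2, the parotid secretory protein, and 0.72 for Sec61b, a subunit of the translocon, and 0.99 or more for the 3 paralogs with their own sum. Over the 15 nuclei clusters alone, 1 of the 10, Bpifa2 (0.77), was again among the 10 highest, followed there by Hey1 (0.76), Kcne1 (0.75), Mup6 (0.74) and Myrfl (0.72). Kcne1, Mup6 and Myrfl are among the 10 leading genes of the cluster picked for its Dcpp level, which is 1 of the 15 points. Nothing is read from their r, and how far that point sets the r of other genes was not tested. The points share their library, depth and any free RNA, so these values describe the clusters and carry no test.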

How the data were processed

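For each library the authors deposited 1 matrix of UMI counts by gene and barcode, not normalized. Its header names Cell Ranger 7.0.0, and the submitters' processing notes name that version and the build GRCm39. The annotation, and whether intronic or multiply mapped reads were counted, are not given in the sources used here. Symbols were used as the files pair them with gene identifiers.

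Barcodes below 500 UMIs or 300 genes, or with 5% or more mitochondrial UMIs, were removed. Both libraries were clustered together from 2000 variable genes (without the Dcpp genes), 30 components and 20 neighbours, by Leiden at resolution 1.0 (Scanpy 1.11.5, igraph 0.11.9). A cluster was secretory-rich where the 8 most abundant genes of the fixed secretory list had at least 0.75 times the UMI share they had in barcodes under 1000 UMIs. Other clusters were named from at least 3 markers, and clusters 18 and 23 were left unnamed by a rule on leading genes set after the clusters were seen. Doublets were kept: Scrublet marked 289 of 8640 control nuclei (3.34%) and 6 of 14245 null nuclei (0.042%), so it did not work in the null library. It marked 2 of the 122 control nuclei of the cluster led by Kcne1, Iqck and Fgf13 and 0 of the 269 null nuclei.

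Counts were summed per group and given as CPM with exact Poisson intervals, shares with exact Clopper-Pearson binomial intervals, and log2 ratios with an exact conditional binomial interval (SciPy 1.17.1). With 1 library per genotype no test was run, so the list comparisons are counts of genes past 2-fold. The members, lists and comparisons were chosen with earlier results of these data known. The genes named were the members, relatives, 4 neighbours on each side, the 10 genes most like the Dcpp sum, up to 8 members of each list with at least 1000 UMIs, and others where the text says so. RefSeq tables on GRCm38.p6 gave upstream sequences and gene order, and GENCODE M21 the transcripts. No coordinate was converted between builds. Protein sequences were not used here.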

Additional observations from a re-analysis of the deposited data

How the results depend on the processing

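No paired analysis was possible because each genotype had 1 library, and for the same reason no replicate was left out. Each alternative below changed 1 choice, and a value counts as moved when it left its counting interval, which is narrow at these depths. Over 50 alternatives of the main results, 23 stayed within it, 26 moved in the same direction and 1 turned. The ratio per secretory UMI of the cluster led by Kcne1, Iqck and Fgf13 was not among the 50. It also turned, from 0.26 to -0.24.

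The log2 ratio over all kept barcodes (2.04) was 2.15 with no barcode filter, 1.87 with at least 1000 UMIs, 1.95 under 1% mitochondrial UMIs, 2.07 with Dcpp left out of the denominator, 2.16 without secretory products in it and 1.86 per secretory UMI. In the secretory-rich clusters (2.17) it was 2.16 with the rule at 0.5, 2.17 under 1% mitochondrial UMIs, 2.22 without Dcpp in the denominator and 1.86 per secretory UMI. In all nuclei clusters (2.28) the same changes of rule, Dcpp denominator and secretory denominator gave 2.30, 2.30 and 1.90, a split by UMI number alone gave 1.87, and leaving out the cluster led by Kcne1, Iqck and Fgf13 gave 2.42. For 10 named classes and 44 alternatives the log2 ratio stayed between 2.15 and 2.63.

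In the cluster led by Kcne1, Iqck and Fgf13 the log2 ratio (0.26) was 0.35 without the highest barcode of each library, 0.21 with at least 2000 UMIs and -0.56 after subtraction of free RNA, which removes a larger part of the null than of the control UMIs. The first 2 of these, like its exclusion from all nuclei, were chosen after seeing the data. Its excess over the other nuclei (3.04 in the control, 0.89 in the null library) was 2.88 and 0.84 without the highest barcodes and, in the null library, 0.83 with at least 2000 UMIs. The share of its nuclei with at least 5 Dcpp UMIs was 95.9% (control) and 100% (null) thinned to 1000 UMIs, and 100% in both unthinned. The r of Wfdc18 (0.80) was 0.85 at resolution 2.0, where 7 of the 10 genes were shared, and 0.53 over nuclei clusters alone.

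Depth limits the rarest genes: Zg16, Prss30 and Prss32 had too few UMIs for a level, and Csf2 too few to check the genotype.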
